A study of Mus musculus with 3 samples.

Results

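Long intergenic noncoding RNAs (lincRNAs) are transcripts that lie outside protein-coding genes and are not translated into long proteins. Here they are the 154 genes that the gene table typed as lincRNA and whose normalised counts averaged 50 or more in 3 libraries of mouse embryonic stem cells (ESCs). They came from 1795 lincRNA genes among 39179 genes in all. A normalised count is the number of reads of a gene divided by the size factor of its library. The imprinted H19, Meg3 and Mirg also passed the level minimum and were left out, together with Rian and Kcnq1ot1, and a further 1638 lincRNAs lay below it. The measured values chose the members, so that the presence of a gene among them is not a result. Just outside the minimum were Gm12319, Gm5860 and Foxl2os, with means of 49.6, 49.8 and 49.9, and just inside were 9330159M07Rik, Gm26532 and Gm16702, with 51.2, 51.3 and 51.8. Of the 154 lincRNAs, 8 were under 50 in WT cells and entered through another library, 5 of them through KO cells and 3 through OE cells.

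RNA-seq compared 1 library each of E14tg2a ESCs grown in Serum plus LIF, a cytokine that holds mouse ESCs undifferentiated. KO cells were a line cloned from sorted single cells in which Cas9 placed frameshifts in both alleles of Zmym2, the gene of a zinc finger protein also called ZFP198. OE cells expressed Zmym2 from a stably integrated PiggyBac transgene, after transfection and drug selection, and WT cells were the unmodified line. The comparison asks how the level of ZMYM2 bears on the transcripts of ESCs. No empty-vector library was analysed, so effects of transfection, selection and cloning cannot be told apart from those of Zmym2. With 1 library per condition no difference has a replicate check. The 95% intervals given are exact and account for nothing beyond counting error. The titles of the KO and OE libraries and the line descriptions stored with them are reversed relative to each other. The names used here follow the titles, which match the columns of the table. Zmym2 itself had 4370 normalised counts in KO cells and 57139 in OE cells, against 7956 in WT cells, so that the library titled OE was the high one.

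LincRNAs take part in several steps of gene expression. Some act in the nucleus, as scaffolds of nuclear bodies or at nearby genes, some are hosts whose introns carry small nucleolar RNAs or microRNAs, and for many only the act of transcription or no role at all is known. In mouse ESCs a set named Platr, for pluripotency-associated transcript, was defined by expression in ESCs and loss on differentiation. Lncenc1 and Panct2 are among the other lincRNAs known from ESCs.

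Reads assigned to genes totalled 46995766 in KO cells, 41840774 in OE cells and 50120551 in WT cells. All 10 ESC marker genes were present in every library, the lowest at 3619 normalised counts, and none was 2-fold apart from WT. Markers of other cell types were higher as sums in OE cells. The fibroblast list summed to 2366 in KO and 6474 in OE cells, against 2864 in WT cells, with 6 of its 10 genes past 2-fold in OE cells. The trophoblast list summed to 3238 in KO and 21793 in OE cells, against 4579 in WT cells, with 3 of 5 past 2-fold in OE cells. The neuronal and glial list summed to 4736 in KO and 10957 in OE cells, against 6759 in WT cells, with 3 of 8 past 2-fold in OE cells. Hbb-bt of the blood list and Ttr of the liver and gut list had no read in any library. The part of these other genes in the results below was not tested. In bulk RNA, fewer cells that express a gene and less RNA per cell cannot be told apart.

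Past 2-fold, more lincRNAs were lower than higher in OE cells, while more of all genes were higher than lower. Of the 154 lincRNAs, 6 were at least 2-fold higher in OE than in WT cells and 16 at least 2-fold lower, or 3.90% and 10.4%. Over all 12896 genes with a mean of at least 50 these shares were 9.74% and 3.12%, and over the 12368 protein-coding genes among them 9.99% and 3.02%. The ratio was taken as log2 of OE over WT after adding 1 to each value. Its median was −0.21 over the lincRNAs and −0.02 over all genes, and 110 lincRNAs were below WT (71.4%) and 44 above, with 52.2% of all genes below WT. The balance depends on the minimum and on the fold. Of the 6 higher, 9930014A18Rik and AI504432 were under 50 in KO and in WT cells and passed through their OE values. Gm12690, 4930591A17Rik, 1700057H21Rik and Platr6 average under 50 over OE and WT cells and passed through their KO values, and with the minimum set on those 2 libraries 7 of 146 lincRNAs were higher and 12 lower. At a mean of at least 200, 4 were higher and 6 lower, and at 3-fold 4 were higher and 3 lower, so that slightly more were higher there. The shares of all genes at these other settings are not given, so these counts cannot be set against a background. When genes of like level were set side by side, 2.52% of 119 lincRNAs with a mean of 50 to 500 were 2-fold higher and 10.9% lower, against 21.1% and 6.70% of 3778 protein-coding genes. Among the 35 lincRNAs with a mean over 500, 3 were higher and 3 lower (8.57% each), against 5.11% higher and 1.41% lower of 8590 protein-coding genes. Of 54 antisense genes with a mean of at least 50, 7.41% were higher and 7.41% lower, with 64.8% below WT. The share below WT was 57.1% for pseudogenes and 44.8% for processed transcripts.

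In KO cells the balance was the other way. At least 2-fold higher were 11 lincRNAs, or 7.14%, against 2.43% of all genes, and at least 2-fold lower were 4, or 2.60%, against 3.09% of all genes. The median log2 ratio of KO over WT was 0.05 over the lincRNAs and −0.03 over all genes, with 86 above WT and 68 below (44.2%), while 55.3% of all genes were below WT. Among lincRNAs with a mean of 50 to 500, 7.56% were higher and 3.36% lower, while protein-coding genes of that level had 6.22% and 6.88%. Over protein-coding genes of any level the shares were 2.25% higher and 3.14% lower. The minimum on the mean bears on this balance, because 3 of the 11 were under 50 in WT cells and had passed through KO cells. Gm12690 and 1700057H21Rik, also of the 11, were at 50.1 in WT cells. They averaged under 50 over OE and WT cells, so they too had passed through KO cells. With a minimum of 50 in WT cells alone, 8 lincRNAs were at least 2-fold higher and 7 lower in KO cells, and 4 were higher and 21 lower in OE cells. The shares of all genes under that minimum are not given. Both comparisons share the WT library, so a high or low WT value moves both ratios of a gene the same way.

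**Figure D1:**
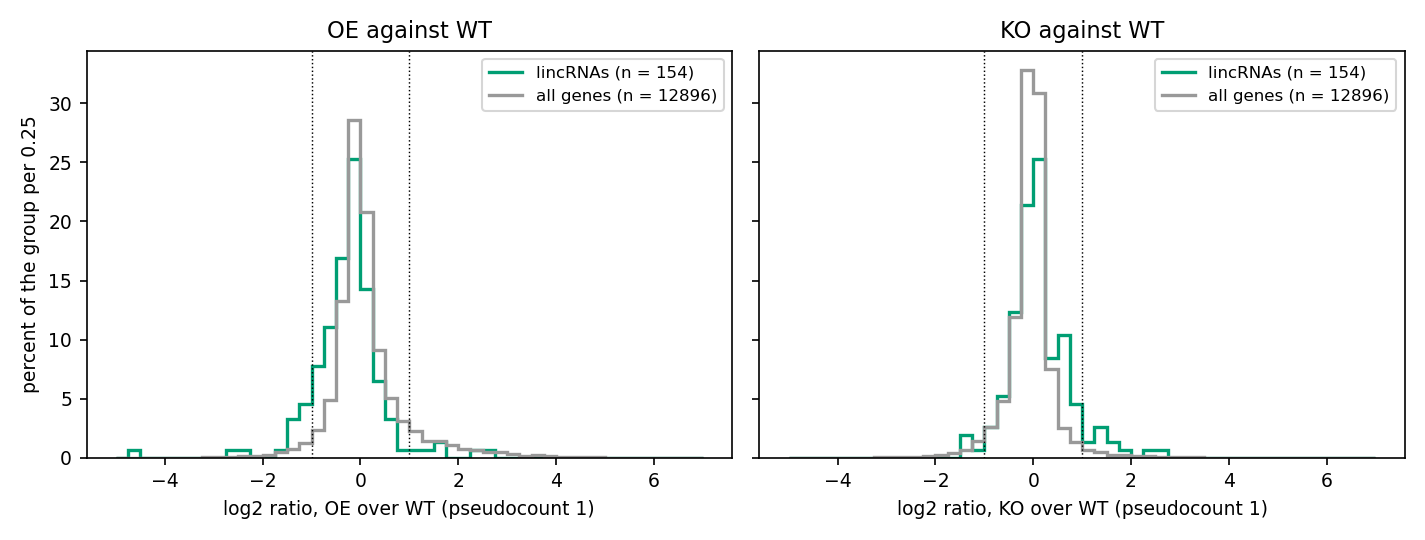
Distribution of log2 ratios to WT (x axis, pseudocount 1) for 154 lincRNAs and all 12896 genes, as the percent of each group per 0.25 (y axis, percent), with OE against WT on the left and KO against WT on the right. Dotted lines mark 2-fold. The lincRNAs lie to the left of all genes in OE cells (medians −0.21 and −0.02), and in KO cells their curve has more above 2-fold (7.14% against 2.43%). At a mean of 50 to 500 the KO shares were closer, 7.56% of lincRNAs and 6.22% of protein-coding genes.

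**Figure D2:**
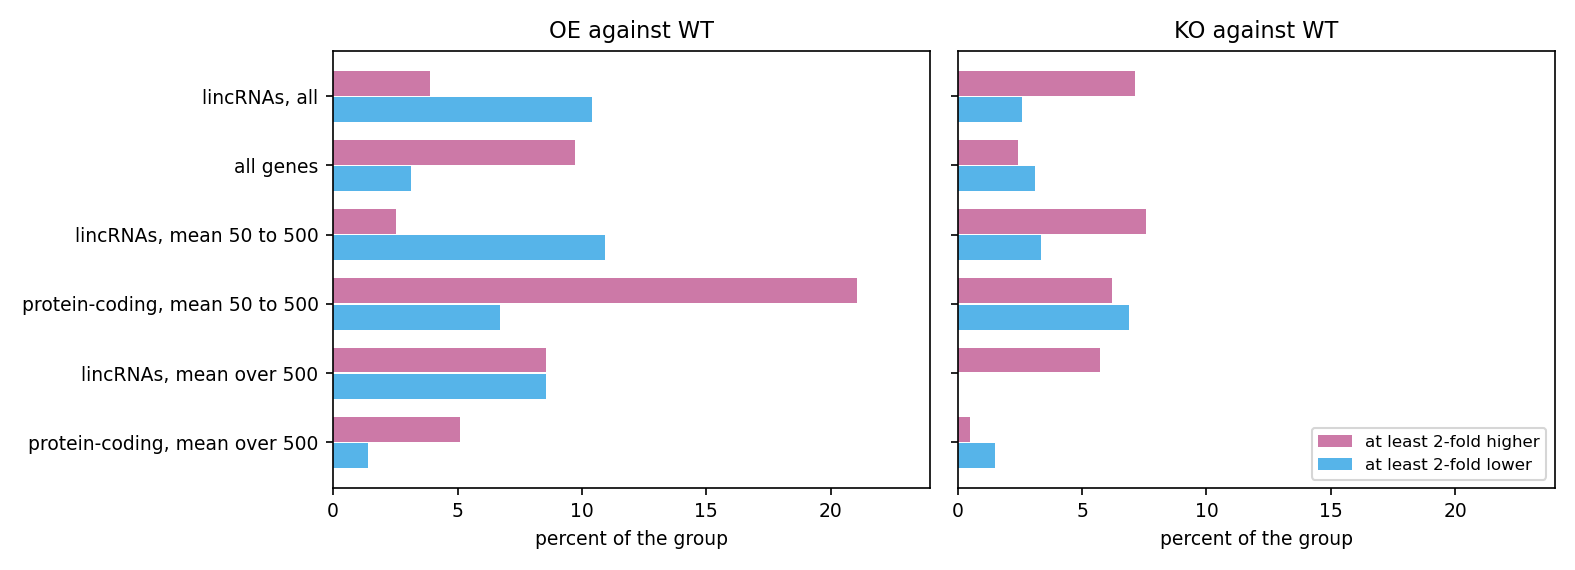
Percent of each group (x axis) at least 2-fold higher or lower than WT, in OE cells on the left and KO cells on the right, for lincRNAs beside all genes and beside protein-coding genes of the same range of mean level. In OE cells the lower bar is the longer one for lincRNAs of mean 50 to 500 (10.9% lower, 2.52% higher) and the higher bar for protein-coding genes of that range (21.1% higher, 6.70% lower).

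The lincRNAs are mostly low in level. The median of their means was 157 normalised counts, and 1202 for protein-coding genes that passed the same minimum. Of the 154, 88 had a mean under 200. Their names are mostly placeholders, with 61 named Gm and 66 named Rik. In the GENCODE M21 annotation of GRCm38, 147 had an entry, with a median exonic length of 2503.5 bases. M21 kept the type lincRNA for 111 of them, called 13 antisense and 8 processed transcripts, and called 7 protein-coding, including Tunar and Mtln, which are now known to encode small proteins.

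Per kilobase of exon, which could be computed only for lincRNAs with an M21 exonic length and so not for Snhg1, Lncenc1 (Gm2373 in the table, chromosome 13, 97434970 to 97497007) had the second highest level after Gm26924 in WT cells. It had 7854 normalised counts per kb in KO cells and 2536 in OE cells, against 5152 in WT cells. Next in WT cells came Malat1, a nuclear RNA of speckles, with 1648 per kb in KO and 2188 in OE cells, against 2321 in WT cells. Snhg5, a host of small nucleolar RNAs, had 2069 per kb in KO and 2051 in OE cells, against 2031 in WT cells. Malat1 was above Snhg5 in OE and WT cells and below it in KO cells. The level of Platr15 per kb was 3038 in KO and 6196 in OE cells, against 1104 in WT cells, so it lay above both in KO and OE cells and below both in WT cells.

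The highest value of all belonged to Gm26924 (ENSMUSG00000098178, chromosome 17, 39846958 to 39848788), with 250665 normalised counts in KO cells and 165944 in OE cells, against 462031 in WT cells. Its ratio to WT was 0.359 (0.357 to 0.361) in OE and 0.543 (0.540 to 0.545) in KO cells. M21 (GRCm38) places a ribosomal RNA gene across the same interval on the other strand, from 39846353 to 39848827. Gm26924 took 0.528% of all gene reads in KO cells and 0.360% in OE cells, against 0.976% in WT cells. The 2 mitochondrial ribosomal RNA genes had the same order, summing to 216142 in KO and 107401 in OE cells, against 430647 in WT cells. Genes typed as nuclear ribosomal RNA summed to only 34.3 in KO and 16.5 in OE cells, against 30.2 in WT cells. Counts this low and this close cannot order KO and WT cells, so whether these genes share the order of Gm26924 is not decided. Gm26917, which lies beside Gm26924, had ratios of 0.801 in OE and 0.985 in KO cells. The libraries were depleted of ribosomal RNA, and the part of that step in the Gm26924 values was not tested. Without Gm26924 the other 153 lincRNAs summed to 105606 normalised counts in KO cells and 86888 in OE cells, against 96752 in WT cells.

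**Figure D3:**
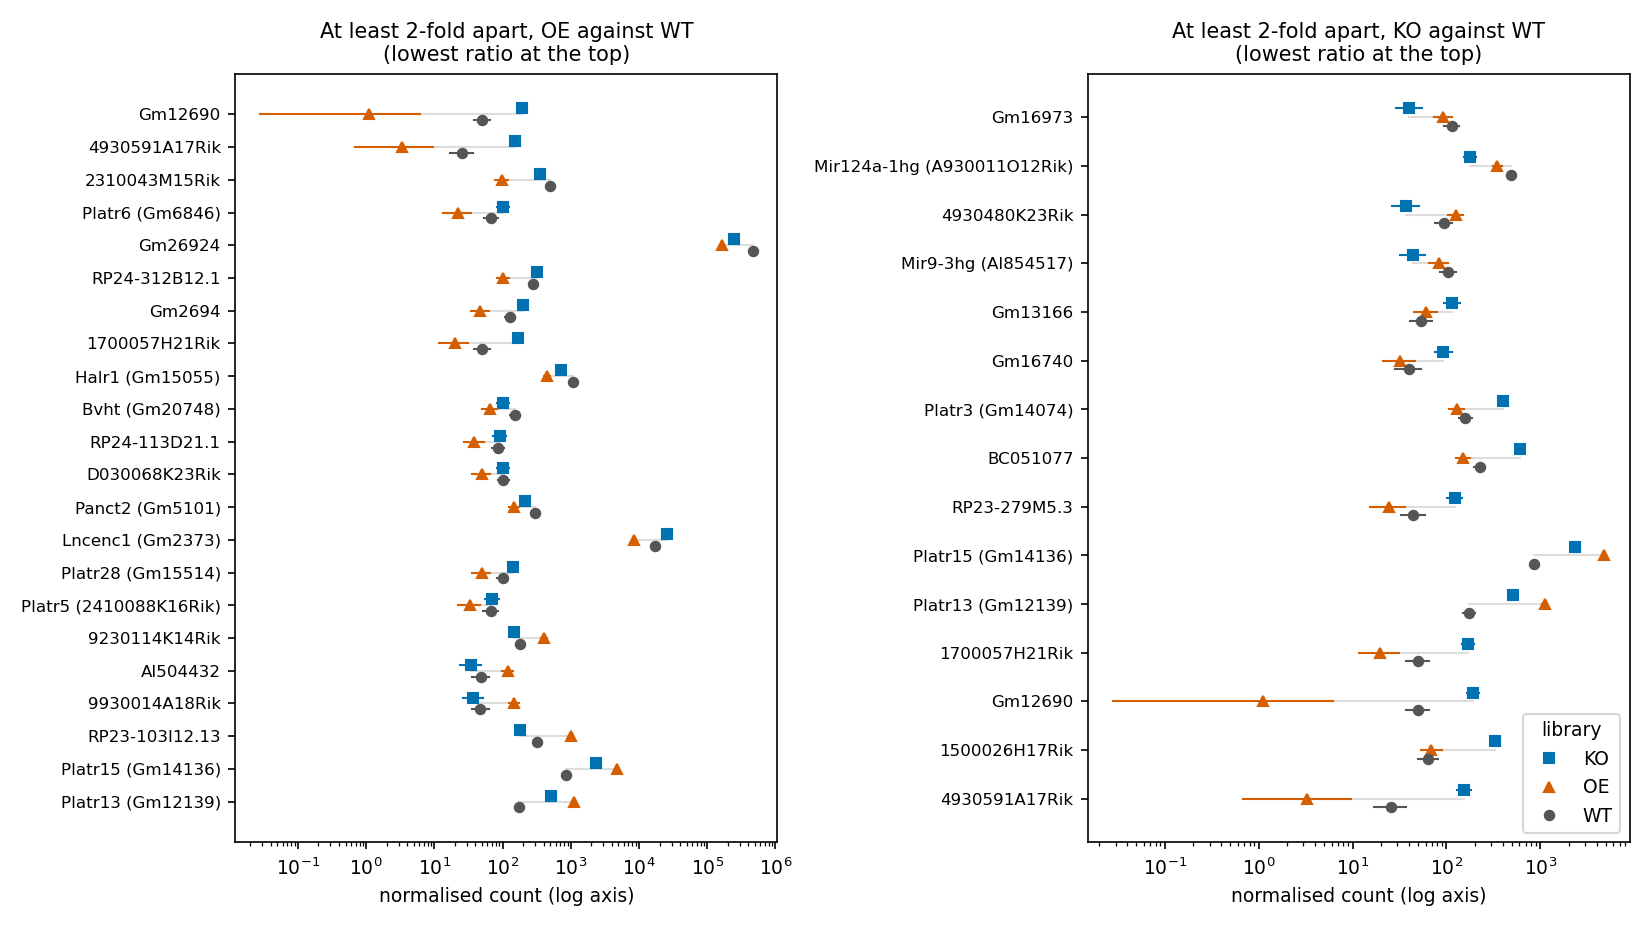
Level of each lincRNA at least 2-fold apart from WT in OE cells (left, 22 lincRNAs) and in KO cells (right, 15 lincRNAs), as normalised counts on a log axis. Points are the KO, OE and WT libraries, 1 each, and bars are 95% counting intervals. Gm12690 and 4930591A17Rik have the lowest OE values, 1.10 and 3.30, and Platr13 and Platr15 have OE above KO and KO above WT.

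Platr13 and Platr15 were the lincRNAs with the highest ratios in OE cells, and both were also higher in KO cells. Platr13 (Gm12139 in the table, ENSMUSG00000086475, chromosome 11, 41218837 to 41221096) had 516 normalised counts in KO and 1113 in OE cells, against 175 in WT cells. Its ratio to WT was 6.37 (5.44 to 7.49) in OE and 2.95 (2.49 to 3.51) in KO cells. Platr15 (Gm14136, ENSMUSG00000086563, chromosome 2, 150704536 to 150706876) had 2334 in KO and 4759 in OE cells, against 848 in WT cells. Its ratios were 5.61 (5.22 to 6.04) in OE and 2.75 (2.55 to 2.98) in KO cells. For each of them both engineered lines lay above WT, with the OE line the higher.

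The transcripts of these 2 lincRNAs share a stretch of sequence, although they lie on different chromosomes. This was looked for after their values were seen. In M21, bases 99 to 375 of the 375-base Platr13 transcript aligned with bases 192 to 466 of the 768-base Platr15 transcript, with 263 of 277 columns identical (94.9%). The stretches are printed 5′ to 3′ from the M21 transcripts because they are what the lincRNAs with the highest OE ratios have in common. Capitals mark the bases that differ, 12 substitutions and 2 bases of Platr13 with no partner in Platr15.
Platr13 bases 99 to 375: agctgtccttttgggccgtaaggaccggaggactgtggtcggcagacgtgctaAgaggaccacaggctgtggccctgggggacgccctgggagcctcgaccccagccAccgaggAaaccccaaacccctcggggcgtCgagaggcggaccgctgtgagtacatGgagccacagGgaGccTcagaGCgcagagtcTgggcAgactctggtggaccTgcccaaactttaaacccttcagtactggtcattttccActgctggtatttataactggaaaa
Platr15 bases 192 to 466: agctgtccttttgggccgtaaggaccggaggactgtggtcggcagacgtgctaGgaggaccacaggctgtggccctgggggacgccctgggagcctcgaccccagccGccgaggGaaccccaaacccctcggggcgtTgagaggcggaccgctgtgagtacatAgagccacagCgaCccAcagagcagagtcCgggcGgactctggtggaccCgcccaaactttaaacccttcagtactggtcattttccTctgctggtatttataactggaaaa
Reads from this stretch may be assigned to either gene or lost, so the values of both are uncertain to that extent. Among the 147 lincRNAs with M21 transcripts, 43 pairs shared at least 150 bases at 90% identity or more, on the same or the opposite strand. This pair was the only one of the 43 with both members at least 2-fold apart in the same direction, in OE and likewise in KO cells. The search began from the 2 highest OE ratios, and the 2 genes may share reads, so this is a description and no check.

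The other 4 lincRNAs at least 2-fold higher in OE cells did not share the higher KO level. RP23-103I12.13, which has no M21 entry, had 183 normalised counts in KO and 1008 in OE cells, against 324 in WT cells. Its ratios were 3.11 (2.74 to 3.53) in OE and 0.564 (0.469 to 0.677) in KO cells. 9930014A18Rik (chromosome 15) had 37.4 in KO and 149 in OE cells, against 47.2 in WT cells, an OE ratio of 3.14 (2.26 to 4.44). AI504432 (chromosome 3) had 34.3 in KO and 119 in OE cells, against 48.2 in WT cells, an OE ratio of 2.47 (1.75 to 3.51). 9230114K14Rik (chromosome 5) had 149.5 in KO and 408 in OE cells, against 180.5 in WT cells, an OE ratio of 2.26 (1.89 to 2.71). All 4 were below WT in KO cells, with intervals that included 1 except for RP23-103I12.13. Of the 4, 9930014A18Rik and AI504432 passed the level minimum only through their OE values. The next in order among lincRNAs with at least 100 in OE or WT cells, Gm17491, Gm4425, 1110002J07Rik and 1810058I24Rik, had OE ratios of 1.46, 1.43, 1.37 and 1.35.

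Among lincRNAs with at least 100 normalised counts in OE or WT cells, 2310043M15Rik (ENSMUSG00000097768, chromosome 16, 93792136 to 93794901) had the lowest OE ratio. It had 349.5 in KO and 97.9 in OE cells, against 491 in WT cells, which gives ratios of 0.199 (0.157 to 0.25) in OE and 0.711 (0.619 to 0.817) in KO cells. RP24-312B12.1 had 316 in KO and 101 in OE cells, against 282 in WT cells. Gm2694 (chromosome 8) had 198 in KO and 47.3 in OE cells, against 130.4 in WT cells, and D030068K23Rik (chromosome 8) had 102 in KO and 49.5 in OE cells, against 103 in WT cells. RP24-113D21.1 had 90.9 in KO and 38.5 in OE cells, against 86.9 in WT cells. For each of these 5, OE cells were the lowest of the 3 libraries.

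Down to 1 and 3 reads in OE cells were Gm12690 and 4930591A17Rik, both higher in KO cells. Gm12690 (ENSMUSG00000087332, chromosome 4, 99569500 to 99573011) had 194 normalised counts in KO and 1.10 in OE cells, against 50.1 in WT cells. The OE value is 1 read, and the ratio was 0.0220 (0.000546 to 0.128) in OE and 3.87 (2.84 to 5.35) in KO cells. 4930591A17Rik (ENSMUSG00000039138, chromosome 2, 179414936 to 179416882) had 155 in KO and 3.30 in OE cells, against 25.5 in WT cells. The OE value is 3 reads, and the ratio was 0.129 (0.0251 to 0.421) in OE and 6.06 (4.01 to 9.49) in KO cells, the highest KO ratio of the 154. 1700057H21Rik (chromosome 2) had 171 in KO and 19.8 in OE cells, against 50.1 in WT cells, with ratios of 0.396 (0.218 to 0.686) in OE and 3.41 (2.49 to 4.73) in KO cells. For these 3 the order of the libraries was KO, WT, OE from high to low.

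Promoters could be read for 80 of the 154 lincRNAs from RefSeq (GRCm38.p6), as 250 bases before the start of transcription and 50 after it. The promoters of 4930591A17Rik and 2310043M15Rik are printed 5′ to 3′ as those of the lincRNA with the highest KO ratio and of the one with the lowest OE ratio among those of at least 100. Capitals mark matches to any of the motifs searched on both strands, which were the octamer ATTTGCAT, SOX ACAATGG, AP-1 TGANTCA, TEAD ACATTCC, T-box AGGTGTGA, the CCAAT box and the TATA box TATAAA.
4930591A17Rik promoter, chr2:179414686-179414985, plus strand: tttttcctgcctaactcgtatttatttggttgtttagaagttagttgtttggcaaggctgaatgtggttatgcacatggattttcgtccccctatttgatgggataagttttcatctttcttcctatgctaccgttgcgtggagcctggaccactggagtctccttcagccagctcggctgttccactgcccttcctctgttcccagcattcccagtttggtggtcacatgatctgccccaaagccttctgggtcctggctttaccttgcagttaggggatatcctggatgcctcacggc
2310043M15Rik promoter, chr16:93794852-93795151, minus strand: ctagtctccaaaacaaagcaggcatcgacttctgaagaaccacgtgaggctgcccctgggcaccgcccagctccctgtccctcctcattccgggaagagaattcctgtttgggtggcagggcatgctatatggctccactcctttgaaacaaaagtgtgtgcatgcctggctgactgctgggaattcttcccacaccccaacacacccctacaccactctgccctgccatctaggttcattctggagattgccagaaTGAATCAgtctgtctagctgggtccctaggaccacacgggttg
The first holds no match, and the second holds 1 AP-1 match that begins at base 8 after the start. An AP-1 match was found in 2 of 10 promoters of lincRNAs at least 2-fold lower in OE cells, in 5 of the 80 lincRNA promoters (6.25%) and in 7.81% of all 32817 promoters. The octamer was in 4 of the 80 (5%) and in 1.74% of all promoters, and in none of the 10. TEAD was in 7 of the 80 (8.75%) and in 3.85% of all, and SOX in 2 of the 80 (2.50%) and in 3.67% of all. CCAAT was in 37.5% of the 80 and 37.4% of all, the TATA box in 11.2% and 13.6%, and T-box in none of the 80 and 1.27% of all. These are matches of letters, and with so few promoters they are given as a description.

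The KO cells had 11 lincRNAs at least 2-fold higher, with 4930591A17Rik first. 1500026H17Rik (ENSMUSG00000097383, chromosome 10, 89686371 to 89700866) had 331 normalised counts in KO and 69.3 in OE cells, against 64.3 in WT cells. Its KO ratio was 5.16 (3.96 to 6.80), and its OE ratio of 1.08 had an interval that included 1 (0.754 to 1.54). It starts 86 bases from the start of Scyl2 on the other strand, and Scyl2 had 2864 in KO and 3926 in OE cells, against 2932 in WT cells. BC051077 (chromosome 5) had 609 in KO and 152 in OE cells, against 226 in WT cells, a KO ratio of 2.70 (2.32 to 3.15). RP23-279M5.3 (chromosome 8) had 123 in KO and 24.2 in OE cells, against 44.4 in WT cells, and Gm13166 (chromosome 4) had 115 in KO and 60.5 in OE cells, against 53.9 in WT cells. Gm16740, named because it completes the 11, had 92.9 in KO and 31.9 in OE cells, against 39.7 in WT cells.

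The 4 lincRNAs at least 2-fold lower in KO cells were Gm16973, 4930480K23Rik, Mir124a-1hg and Mir9-3hg. Mir124a-1hg (A930011O12Rik, chromosome 14, 64587331 to 64593961), the host of a copy of the neuronal microRNA miR-124, had 180 normalised counts in KO and 350 in OE cells, against 484 in WT cells. The KO ratio was 0.372 (0.312 to 0.442). Gm16973 had 40.4 in KO and 92.4 in OE cells, against 113 in WT cells, a KO ratio of 0.356 (0.243 to 0.514). 4930480K23Rik had 37.4 in KO and 125 in OE cells, against 93.5 in WT cells. These 3 lie on chromosome 14 between 50 and 80 Mb, a segment that holds Zmym2. There 207 of 213 protein-coding genes were below WT in KO cells, with a median ratio of 0.567, and 5 of the 6 lincRNAs of the segment were below WT too. Only Mir9-3hg of the 4 lies elsewhere, so that 1 was left without the segment and without chromosome 8, where 562 of 653 protein-coding genes were below WT in KO cells. Of 11 lincRNAs on chromosome 8, 4 were below WT in KO cells.

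Mir9-3hg (AI854517, chromosome 7, 79500026 to 79534403), the host of a copy of the neural microRNA miR-9, had 44.4 normalised counts in KO and 83.6 in OE cells, against 105 in WT cells. The KO ratio was 0.424 (0.292 to 0.606). The mature microRNAs of Mir9-3, on the plus strand of chromosome 7, are printed from RefSeq (GRCm38.p6) with the seed, bases 2 to 8, in capitals, to show what this host can give rise to. Their levels were not measured here.
mmu-miR-9-5p: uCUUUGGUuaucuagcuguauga
mmu-miR-9-3p: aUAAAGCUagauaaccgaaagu
Mir17hg, the third microRNA host among the 154 and the source of the miR-17-92 cluster, had 1738 in KO and 1537 in OE cells, against 1593 in WT cells. None of these 3 hosts was 2-fold apart in OE cells, where 9.74% of all genes were higher and 3.12% lower.

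The next KO ratios among lincRNAs with at least 100 in KO or WT cells were those of Gm17435 (0.522), 4930444M15Rik (0.524), Gm2824 (0.627), 6720427I07Rik (0.651) and Halr1 (0.659), beside Gm26924 and RP23-103I12.13 described above. None of these 7 was 2-fold lower in KO cells, and 4930444M15Rik lies in the same segment of chromosome 14.

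Of 28 Platr genes in the table, 21 were typed lincRNA and 14 passed the level minimum. In OE cells 11 of the 14 were below WT, with 3 at least 2-fold lower, 2 at least 2-fold higher and a median log2 ratio of −0.63. In KO cells 11 of the 14 were above WT, with 3 at least 2-fold higher, none 2-fold lower and a median of 0.20. Over all genes the shares higher and lower are the 9.74% and 3.12% for OE and the 2.43% and 3.09% for KO given above, with medians of −0.02 and −0.03. The 3 at least 2-fold lower in OE cells were Platr6, Platr28 and Platr5. Platr6 (Gm6846) had 102 normalised counts in KO and 22.0 in OE cells, against 68.0 in WT cells, an OE ratio of 0.324 (0.187 to 0.537). Platr28 (Gm15514) had 143 in KO and 49.5 in OE cells, against 101 in WT cells. Platr5 (2410088K16Rik) had 70.7 in KO and 33.0 in OE cells, against 67.1 in WT cells, at an OE ratio of 0.492 (0.310 to 0.764). Scaled to total gene reads instead, the OE log2 ratio was −0.98 for Platr28 and −0.96 for Platr5, just short of 2-fold. Platr3 (Gm14074) joined Platr13 and Platr15 as higher in KO cells, with 398 in KO and 129.9 in OE cells, against 159.7 in WT cells and a KO ratio of 2.49 (2.08 to 3.00). The most abundant of the others, Platr17, had 982 in KO and 429 in OE cells, against 801 in WT cells. Without the Platr genes the other 140 lincRNAs had a median log2 ratio of −0.19 in OE and 0.03 in KO cells, with 4 higher and 13 lower in OE cells.

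**Figure D4:**
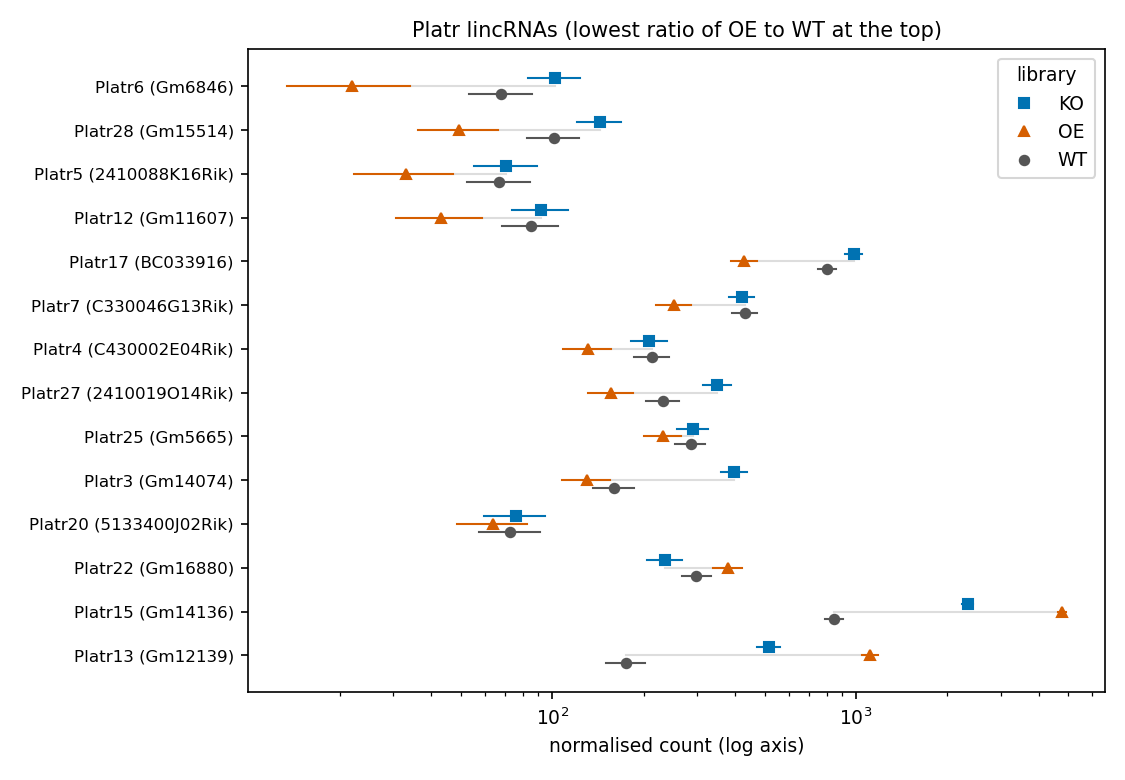
Levels of the 14 Platr lincRNAs in the KO, OE and WT libraries, 1 each, as normalised counts on a log axis with 95% counting intervals, ordered by the ratio of OE to WT. In 11 of the 14 the OE point is to the left of WT, and Platr13, Platr15 and Platr22 are the 3 whose OE point is to the right.

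Of the stem cell lincRNAs, Lncenc1, which is linked to glycolysis and self-renewal in naive mouse ESCs, had 25926 normalised counts in KO and 8371 in OE cells, against 17006 in WT cells. Its ratios were 0.492 (0.479 to 0.506) in OE and 1.52 (1.5 to 1.55) in KO cells. Panct2 (Gm5101, chromosome 1) had 211 in KO and 147 in OE cells, against 302 in WT cells, with ratios of 0.488 (0.396 to 0.599) and 0.698 (0.584 to 0.834) in OE and KO cells. Tunar, which acts in pluripotency and neural differentiation, had 93.9 in KO and 66.0 in OE cells, against 63.3 in WT cells, and its OE interval included 1 (0.724 to 1.5). So 2 of these 3 were at least 2-fold lower in OE cells, against 3.12% of all genes. None was 2-fold apart in KO cells, where 2.43% of all genes were higher and 3.09% lower. These 3 are what was left of 7 listed names, of which 4 were found. The other gene found, Evx1os, typed antisense, had 9.09 in KO and 66.0 in OE cells, against 4.72 in WT cells. A listed lincRNA held under another name would be missed. The lincRNA 1700020I14Rik, 2010 bases from Oip5, was matched to no listed name and was under 2-fold. It had 3449 in KO and 3800 in OE cells, against 3606 in WT cells. Scaled to total gene reads instead, the log2 ratio in OE cells was −0.98 for Lncenc1 and −0.99 for Panct2, just short of 2-fold.

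Among 6 developmental lincRNAs, known for a role in differentiation or for lying beside a developmental gene, 2 were at least 2-fold lower in OE cells, Halr1 and Bvht, and 2 in KO cells, Mir124a-1hg and Mir9-3hg. None of the 6 was 2-fold higher in either. These 6 are the lincRNAs above the level minimum from a list of 22 names, with 9 genes typed lincRNA. Evx1os and Hotairm1, on the same list but typed antisense, were more than 2-fold higher in OE cells. Evx1os had 9.09 in KO and 66.0 in OE cells, against 4.72 in WT cells. Hotairm1 had 3.03 in KO and 47.3 in OE cells, against 9.45 in WT cells. So the 6 do not stand for the whole list. Mir124a-1hg lies in the segment of chromosome 14 described above, where 207 of 213 protein-coding genes were below WT in KO cells. Of all genes, 9.74% were higher and 3.12% lower in OE cells, and 2.43% and 3.09% in KO cells. Halr1 (Gm15055, chromosome 6, 52102949 to 52113684) had 708 normalised counts in KO and 448 in OE cells, against 1074 in WT cells, an OE ratio of 0.417 (0.371 to 0.467). Bvht (Gm20748), or Braveheart, a lincRNA of cardiac commitment in mouse ESCs, had 103 in KO and 64.9 in OE cells, against 152 in WT cells, an OE ratio of 0.427 (0.311 to 0.579). Both were highest in WT cells. Miat had 327 in KO and 293 in OE cells, against 247 in WT cells.

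Among the 154 were 7 hosts of small nucleolar RNAs, Snhg1, Snhg4, Snhg5, Snhg6, Snhg7, Snhg12 and Snhg20. None was 2-fold apart in either line, where few of all genes were (9.74% higher and 3.12% lower in OE cells, 2.43% and 3.09% in KO cells), with median log2 ratios of −0.02 in OE and −0.01 in KO cells. Snhg1, the highest of them in normalised counts, had 4827 in KO and 4566 in OE cells, against 4640 in WT cells, with ratios of 0.984 (0.944 to 1.03) in OE and 1.04 (0.999 to 1.08) in KO cells. Snhg20 had the KO ratio farthest from 1 of the 7, at 0.783 (0.679 to 0.902). Snhg18, a lincRNA below the minimum, had 23.2 in KO and 48.4 in OE cells, against 50.1 in WT cells, and was past 2-fold in KO cells. The nuclear and X-linked RNAs among the 154 were likewise under 2-fold. Malat1 had 11505 in KO and 15281 in OE cells, against 16208 in WT cells, and Neat1, the scaffold of paraspeckles, had 1457 in KO and 1554 in OE cells, against 1719 in WT cells. Ftx, from the X inactivation centre, had 343 in KO and 362 in OE cells, against 324 in WT cells. Pvt1, a neighbour of Myc and a p53 target, had 286 in KO and 288 in OE cells, against 360 in WT cells. Outside the 154, other genes of the p53 and stress list went the other way in OE cells. Trp53cor1, a lincRNA below the minimum, had 13.1 in KO and 59.4 in OE cells, against 23.6 in WT cells. Mir22hg, typed processed transcript, had 47.5 in KO and 202 in OE cells, against 60.5 in WT cells.

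LincRNAs may share their direction with a neighbour, so each was set beside the nearest protein-coding gene that had a mean of at least 50. Of the 147 lincRNAs placed in M21, 27 overlapped that neighbour and 23 started within 1 kb of a neighbour on the opposite strand. In OE cells 19 placed lincRNAs were 2-fold apart. Their neighbour was 2-fold apart in the same direction for 5 (26.3%), in the opposite direction for 4 and neither for 10. Among protein-coding genes 2-fold apart in OE cells, 13.8% had such a neighbour in the same direction. In KO cells 15 were 2-fold apart, and none had a neighbour 2-fold apart in either direction, against 13.6% in the same direction for protein-coding genes. These counts rest on few lincRNAs. Over all 147, lincRNA and neighbour lay on the same side of WT for 55.8% in OE and 57.8% in KO cells. The shares for protein-coding genes were 55.2% and 58.2%. The rank correlation (Spearman) of the log2 ratios was 0.10 in OE and 0.29 in KO cells, against 0.16 and 0.23 for protein-coding genes.

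Of the 5 pairs in the same direction in OE cells, 3 were on overlapping spans and opposite strands, and the read counts were strand-specific. 9930014A18Rik overlapped Fam84b, which had 278 in KO and 875 in OE cells, against 225 in WT cells. Gm2694 overlapped Cbln1, a secreted synaptic protein, with 110.1 in KO and 38.5 in OE cells, against 94.5 in WT cells. Panct2 overlapped Slco4c1, an organic anion transporter, with 363 in KO and 136 in OE cells, against 340.2 in WT cells. The other 2 lay far from their neighbours, Platr13 463526 bases from Ccng1 and Gm26924 444970 bases from Crisp1. In the opposite direction, Platr15 lay 36036 bases from Acss1, an acetyl-CoA synthetase, which had 530.4 in KO and 112 in OE cells, against 423 in WT cells. Platr5 lay 52669 bases from Arl4c, with 687 in KO and 4071 in OE cells, against 605 in WT cells, and 1700057H21Rik lay 271873 bases from Rnd3. Gm12690 lay 83288 bases from Foxd3, a transcription factor of ESCs, which had 2470 in KO and 1428 in OE cells, against 1855 in WT cells, so the near absence of Gm12690 in OE cells stood beside a Foxd3 ratio of 0.770 (0.717 to 0.827).

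**Figure D5:**
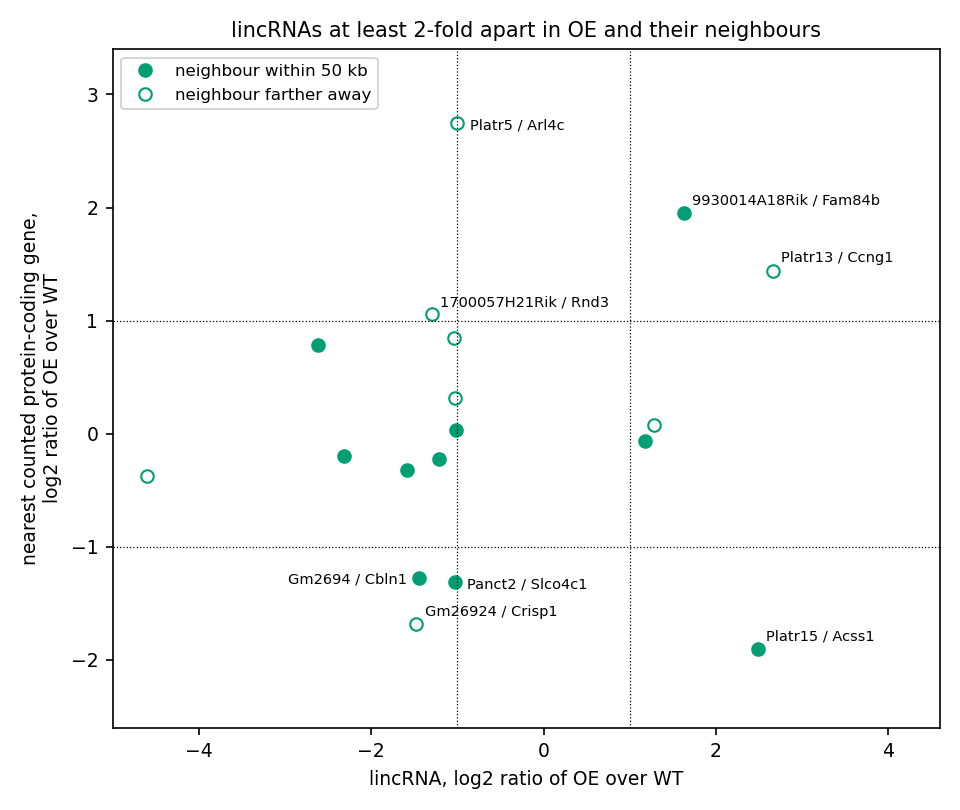
Placed lincRNAs at least 2-fold apart in OE cells, 18 of the 19, with their log2 ratio of OE over WT on the x axis and that of the nearest counted protein-coding gene on the y axis. Dotted lines mark 2-fold, filled points have the neighbour within 50 kb, and the pairs with both genes past 2-fold are named, 5 in the same direction and 3 in the opposite direction.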

How the data were processed

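RNA of 3 E14tg2a cultures was sequenced, 1 library each of Zmym2 KO, Zmym2 OE and WT cells. Per the labels and the paper, ribosomal RNA was removed and strand-specific libraries were prepared. The authors trimmed the reads (Trim Galore), aligned them to GRCm38/mm10 (TopHat2), obtained strand-specific counts per gene (featureCounts) and scaled them with size factors (DESeq2). No annotation release is named in the sources used here. In each library all deposited signal values (100%, tolerance 1e-06) were a whole number of reads times 1 constant, 1.01 in KO, 1.10 in OE and 0.945 in WT, so the authors' counts could be recovered and the values carry no length normalisation. The limit that 0 reads allows, 3 reads, equals 3.03 in KO, 3.30 in OE and 2.83 in WT. Low lincRNAs are therefore the least precise.

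No count model was fitted and no p-value was computed, since each condition has 1 library. Called lincRNAs were at least 2-fold apart on the log2 scale with a pseudocount of 1. Ratios have Clopper-Pearson and levels Poisson intervals of 95%. Without molecular identifiers reads are not independent molecules, so these cover counting error alone. Levels were divided by exonic length only to compare genes, and not for the 7 without an M21 entry or for Snhg7, whose identifier is a small nucleolar RNA in M21. The members and lists were chosen with earlier results of these data known. The lincRNAs named were the 10 with the highest and the 10 with the lowest ratio in each comparison among those reaching 100 in either library, the 10 highest in WT, members of the lists and nearest protein-coding genes. Of the 10 highest in WT, 2810429I04Rik, 4933404O12Rik and Gm16211 were under 2-fold in both lines and are named only here. Others 2-fold apart were named after their values were seen. Alternatives were other scalings (total gene reads, TMM factors, housekeeping genes), pseudocounts, level minimums, folds and member sets. The counting was tested on simulated data. The neighbour of 1 lincRNA, counted among the pairs in the opposite direction, is not reported here. A table of repeat families, a table of 20 genes and 7 columns of levels were not used. Python 3.11.15 with pandas 2.3.3, scipy 1.17.1 and Biopython 1.88, BLAST 2.17.0 and R 4.3.3 with edgeR 4.0.16 (TMM factors only) were used.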

Additional observations from a re-analysis of the deposited data

How the results depend on the processing

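No paired analysis was possible because each condition has 1 library and no result comes from a test. The direction of both medians was kept under every alternative run. The median log2 ratio of OE over WT was −0.32 when scaled to housekeeping genes, a scaling that lowered all OE ratios by 0.10, and 21 lincRNAs were then 2-fold lower. The gap between the median of the lincRNAs and that of all genes stayed between −0.20 and −0.18 in OE cells under the 4 scalings. A scaling moves every log2 ratio by nearly the same amount, so this gap could hardly change and is no check. Scaled to total gene reads, 12 were lower in OE cells, and of the 63 named lincRNAs 4 that were called as deposited, Lncenc1, Panct2, Platr28 and Platr5, were under 2-fold, as were 3 at a pseudocount of 5. The counts followed the level minimum and the fold. At a mean of at least 20, 12 lincRNAs were higher and 33 lower in OE cells and 20 higher and 11 lower in KO cells. At a mean of at least 200, 4 were higher and 6 lower in OE cells, and 4 were higher and 1 lower in KO cells. With a mean of at least 50 over OE and WT, 7 were higher and 12 lower in OE cells. With at least 50 in WT alone, 8 were higher and 7 lower in KO cells. At 1.5-fold, 9 were higher and 37 lower in OE cells and 26 higher and 14 lower in KO cells. At 3-fold, 4 were higher and 3 lower in OE cells, so that slightly more were higher, and 4 higher and 0 lower in KO cells. The shares of all genes at these minimums and folds are not given, so these counts have no background beside them. Without chromosome 8 and the chromosome 14 segment, 10 were higher and 1 lower in KO cells. With the type lincRNA in M21 required, an alternative chosen after seeing the data, 3 were higher and 12 lower in OE cells. With neighbours limited to 50 kb, 3 lincRNAs had one 2-fold apart in the same direction in OE cells. Where a count changed with the level minimum, the fold or the member set, fewer or more lincRNAs were counted by construction. The cause of the shift under housekeeping scaling was not tested.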
